A study of Mus musculus with 12 samples.

Results

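Synaptotagmins are membrane proteins of synaptic vesicles and dense-core granules, and 10 genes of this family were described in mouse cerebellum: Syt1, Syt2, Syt3, Syt4, Syt5, Syt7, Syt9, Syt11, Syt12 and Syt13. They were taken by gene symbol from a table of raw read counts for 18394 genes, and all 10 were found and had enough reads to be tested. The table holds 12 libraries of cerebellar messenger RNA, 6 from wild-type mice (WT) and 6 from mice labelled deltaalpha6-Cre Crfr1 knock-out (cKO), in which Crfr1, the type 1 receptor for corticotropin-releasing factor, was targeted with a Cre driver whose name points to Gabra6, a GABA-A receptor subunit gene of granule cells. Strain, age and litter are not stated in the labels, and neither group is described as carrying the driver without the knockout, so effects of the driver and of receptor loss cannot be told apart. The family was selected on the cKO against WT differences measured in these same libraries, those of Syt1 and Syt2 among them. Differences between cKO and WT are therefore given for the 10 genes as a description, without p-values, and are used to support nothing further.

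In these proteins a pair of C2 domains faces the cytosol. In the calcium-binding members the domains bind calcium and membrane when an action potential opens calcium channels, and drive SNARE proteins to fuse the vesicle. Syt1, Syt2 and Syt9 are the sensors of fast, synchronous release. Syt7 and Syt3 bind calcium with higher affinity, and Syt7 serves slower, asynchronous release and facilitation. Syt4, Syt11, Syt12 and Syt13 bind calcium weakly or not at all. In the cerebellum Syt1 and Syt7 act at the parallel fibre terminals of granule cells, and Syt2 is the fast sensor of the inhibitory terminals of basket and stellate cells.

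Libraries held 23.8 to 62.1 M counts in WT and 32.3 to 58.7 M in cKO (M, counts in units of 1e6), and the rarest member, Syt5, had 140 to 438 reads per library. The targeted gene, listed as Crhr1, measured 97.6 ± 4.31 CPM across the WT libraries and 98.8 ± 6.00 across the cKO libraries (SD, n = 6 per genotype), a sum over the whole gene that does not check the deletion. CPM is counts scaled to a library of 1 M after TMM normalization. Markers of cerebellum were abundant and those of brainstem nearly absent: Gabra6, the granule cell receptor subunit, stood at 813 ± 56.1 CPM in WT, and 10 brainstem markers summed to at most 1.53 CPM in any library. By contrast, 10 markers of choroid plexus, ependyma and meninges varied widely between libraries. Their sum ran from 261 to 699 CPM in WT and from 191 to 1081 in cKO. A list of 14 forebrain and midbrain markers had 9 with enough reads to be tested. The mean log2 level of those 9, used below as a score, ran from 2.36 to 2.64 in WT and from 2.43 to 2.80 in cKO. Its median was 2.44 in WT and 2.59 in cKO, so a fit that includes the score cannot fully separate it from genotype.

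Of the 10 synaptotagmins, 4 differed between genotypes at an adjusted p under 0.05 in the edgeR fit across all genes, where 2.64% of the 15467 tested genes did. Syt1, Syt9 and Syt4 fell (1.38% of all genes were called lower) and Syt2 rose (1.27% were called higher). In those 4 genes no cKO library overlapped a WT library, which held for 2.09% of all tested genes. The other 6 members were not called, and all 6 had negative log2 fold changes. The median log2 fold change of the 10 was −0.09, against 0.00 over all tested genes, and their median absolute log2 fold change was 0.11 against 0.04. As the family was chosen for this contrast, nothing is read from these shares.

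**Figure D1:**
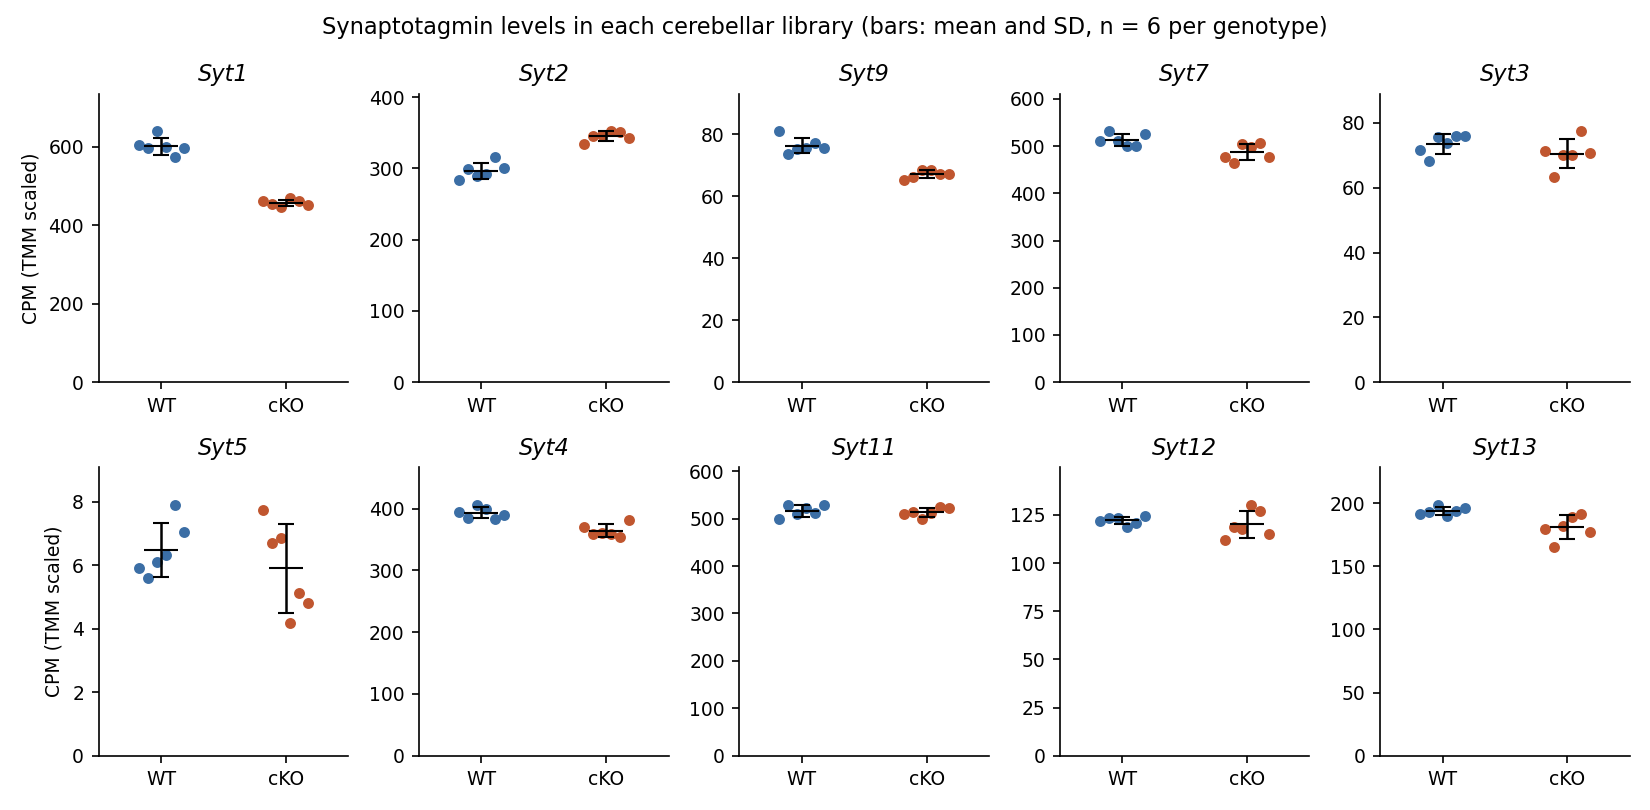
Level of each of the 10 synaptotagmins in CPM (vertical axis, from 0) in the 6 WT and 6 cKO libraries; points are libraries, and bars are the mean and SD. The groups lie apart for Syt1, Syt2, Syt9 and Syt4, and overlap for the other 6.

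Syt1, the fast sensor of most forebrain and granule cell synapses, had the largest log2 fold change of the family. It lies on chromosome 10 (108497650 to 109010982, minus strand, mm10). The 6 WT libraries ran from 573 to 639 CPM with a median of 597, and the 6 cKO libraries from 446.0 to 468 with a median of 457. The lowest WT library was thus above the highest cKO library by more than the whole cKO range. On average Syt1 fell by 23.9%, a log2 fold change of −0.39 (SE 0.02), from 601 ± 21.6 to 457 ± 7.80 CPM (SD, n = 6 each). Of all tested genes, 97.7% had a smaller absolute log2 fold change.

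Syt2, the closely related fast sensor, went the other way. Syt2 lies on chromosome 1 (134646677 to 134762593, plus strand). Its WT libraries ran from 284 to 316 CPM with a median of 296, and its cKO libraries from 334 to 352 with a median of 346. Every cKO library was above every WT library. Syt2 rose 1.16-fold, a log2 fold change of 0.22 (SE 0.03), from 297 ± 11.1 to 345 ± 6.38 CPM (SD, n = 6 each).

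Because Syt1 and Syt2 moved in opposite directions, the DNA just upstream of an annotated start of each is shown, 250 bases from RefSeq (GRCm38.p6, the mm10 coordinates), read 5′ to 3′ on the strand of the gene. Capitals mark the GC box, GGGCGG or its reverse complement CCGCCC. The Syt1 stretch is chr10:109010976-109011225 on the minus strand, and its last 7 bases lie in an exon of GENCODE M21. The Syt2 stretch is chr1:134709050-134709299 on the plus strand and touches no annotated exon.
Syt1: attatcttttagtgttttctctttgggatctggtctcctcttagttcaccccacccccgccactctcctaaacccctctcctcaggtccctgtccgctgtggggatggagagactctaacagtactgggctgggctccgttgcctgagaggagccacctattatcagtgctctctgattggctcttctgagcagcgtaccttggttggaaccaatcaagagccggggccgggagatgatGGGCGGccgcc
Syt2: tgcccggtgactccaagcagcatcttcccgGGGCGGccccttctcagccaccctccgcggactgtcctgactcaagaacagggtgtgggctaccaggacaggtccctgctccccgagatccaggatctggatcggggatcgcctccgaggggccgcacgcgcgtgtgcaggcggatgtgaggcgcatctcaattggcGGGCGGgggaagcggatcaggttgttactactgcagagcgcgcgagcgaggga
The Syt1 stretch holds 1 GC box and is 56.4% G or C, and the Syt2 stretch holds 2 and is 66.4% G or C. Over the same 250 bases of all 32851 annotated starts, 32.7% hold a GC box on either strand. Neither stretch holds the cAMP response element TGACGTCA, found in 1.55% of starts, or its half-site TGACG on either strand, found in 17.8%, which includes every full element. These are letter matches in a window and say nothing of which factors bind. Promoter stretches were matched for 5 of the 10 members, and Syt1 and Syt2 each have a further annotated start. The 250 bases before the further Syt2 start, at chr1:134646362-134646611, hold 1 half-site and 3 GC boxes and no full element, so the absence of the half-site does not hold for both Syt2 starts. Those before the further Syt1 start, at chr10:109009112-109009361, hold neither motif.

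Syt9, a fast sensor of limbic and striatal neurons that also acts in dense-core granules, was lower in cKO. Its WT libraries ran from 73.5 to 81.0 CPM with a median of 75.6, and its cKO libraries from 65.1 to 68.6 with a median of 67.2. The groups did not overlap, although Syt9 is the rarest of the called members. It fell to 0.88 of the WT level, a log2 fold change of −0.18 (SE 0.03), from 76.3 ± 2.54 to 67.1 ± 1.32 CPM (SD, n = 6 each).

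The balance among the fast sensors was compared on a scale of CPM per kb of exon, which allows levels of different genes to be set side by side. Summed over Syt1, Syt2 and Syt9, the level was 130.1 ± 1.71 CPM per kb for WT and 117 ± 1.53 for cKO (SD over 6 libraries). Syt1 made up 55.4 ± 1.39% of that sum in WT and 46.9 ± 0.60% in cKO, and Syt2 made up 29.9 ± 1.31% and 38.7 ± 0.41%. The share of Syt9 was 14.8 ± 0.53% and 14.4 ± 0.23%. The ratio of Syt2 to Syt1 ran from 0.494 to 0.601 in the WT libraries and from 0.792 to 0.851 in the cKO libraries, without overlap. Syt1 remained the more abundant of the pair in all 12 libraries. In bulk tissue, fewer cells of a type and less RNA per cell cannot be told apart. Over all 10 members the summed level was 499 ± 5.06 CPM per kb in WT and 469 ± 7.32 in cKO.

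**Figure D2:**
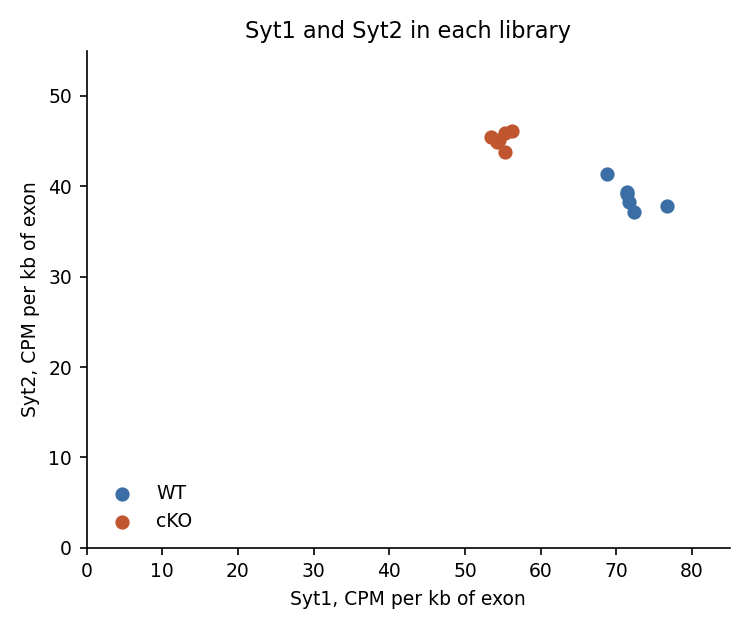
Syt2 against Syt1 in each library, both in CPM per kb of exon, with WT in blue and cKO in orange and both axes starting at 0. The 6 cKO libraries lie to the left of and above the 6 WT libraries, at a Syt2 to Syt1 ratio of 0.792 to 0.851 against 0.494 to 0.601.

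Granule cell markers were called in both directions, whereas most interneuron and Purkinje cell markers were not called, and the part of any of them in the Syt1 and Syt2 differences was not tested. Of 16 tested granule cell markers, 4 were higher and 7 lower in cKO, where 1.27% and 1.38% of all tested genes were, and their summed level ran from 7527 to 7880 CPM in WT and from 7246 to 7800 in cKO. Gabra6, the gene to which the name of the Cre driver points, fell by 23.3%, to a mean of 623 CPM (edgeR adjusted p = 1.45e-05). Whether the driver itself changes Gabra6 was not tested. Of 12 tested inhibitory interneuron markers 1 was lower and none higher, 7 had an unadjusted p under 0.05 in edgeR, and 11 of the 12 log2 fold changes were negative. Their sum ran from 2163 to 2291 CPM in WT and from 2063 to 2218 in cKO. None of 10 Purkinje cell markers was called, with 2 at an unadjusted p under 0.05 in edgeR, 1 called in DESeq2, and sums of 8691 to 9042 CPM in WT and 8119 to 9211 in cKO. All 9 microglia markers had positive log2 fold changes and 2 were called higher, with sums of 161 to 173 CPM in WT and 168 to 195 in cKO.

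The high-affinity sensors Syt7 and Syt3 overlapped between genotypes and were not called. Syt7 ran from 501 to 532 CPM in WT and from 465 to 506 in cKO, with 4 of 6 cKO libraries below the lowest WT library. Its log2 fold change was −0.07 (SE 0.03). As Syt1 was lower by more, the ratio of Syt7 to Syt1 per kb went from 0.953 ± 0.039 for WT to 1.19 ± 0.045 for cKO (SD over 6 libraries), with ranges of 0.891 to 0.995 and 1.14 to 1.26. Syt3, which is also found on the postsynaptic side where it takes part in AMPA receptor removal, ran from 68.2 to 76.0 CPM in WT and from 63.2 to 77.5 in cKO, with a log2 fold change of −0.06 (SE 0.04). Exons of Syt7 overlap a gene on the opposite strand in GENCODE M21, and the strand setting of the counting is not given in the sources used here. The same holds for Syt4 and Syt12.

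Syt5, a sensor of dense-core granules, was the rarest member and the most variable. It ran from 5.58 to 7.90 CPM in WT and from 4.17 to 7.73 in cKO, and its coefficient of variation was 13.3% and 23.6%, against 1.67% to 6.41% for the other 9 members in either genotype. Its log2 fold change was −0.16 (SE 0.13), not called. Within each genotype Syt5 was higher in libraries with a higher forebrain and midbrain score. After removal of the genotype means, Pearson's r over the 12 libraries was 0.85 (permutation within genotype, p = 0.00072, adjusted over the 10 members p = 0.0072). Spearman's rho was 0.78 (permutation p = 0.0106, adjusted p = 0.106), and r was 0.75 without the 2 libraries farthest from the median score. The coefficient was 0.87 within WT and 0.86 within cKO. The WT library highest in the score (replicate 5) and the cKO library highest in it (replicate 1) were also the highest in Syt5 in their groups. No other member passed (adjusted permutation p of Pearson's r from 0.401 to 0.985), and by rho no member did.

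**Figure D3:**
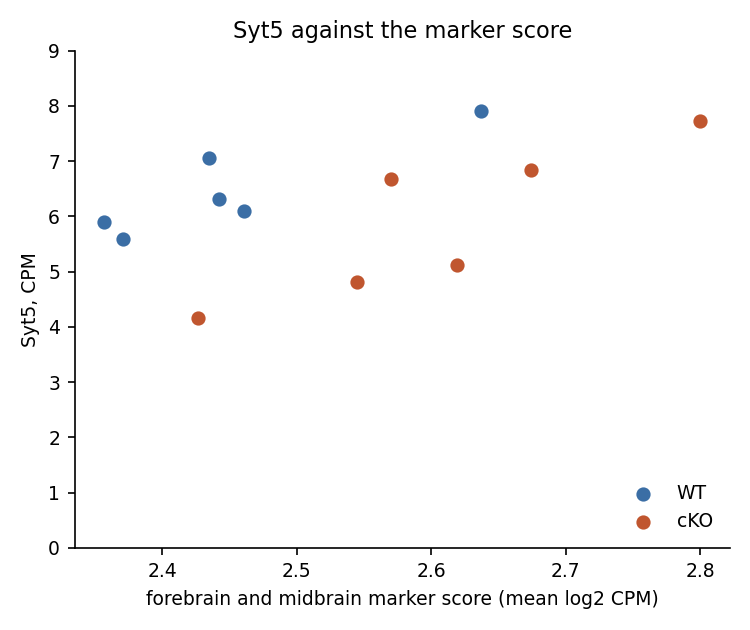
Syt5 in CPM (vertical axis, from 0) against the forebrain and midbrain marker score, the mean log2 CPM of 9 markers, in each of the 6 WT (blue) and 6 cKO (orange) libraries. In both genotypes the library with the highest score has the highest Syt5, and at similar scores the cKO libraries lie below the WT libraries.

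With the score as a covariate the log2 fold change of Syt5 was −0.48 (SE 0.10), called at an adjusted p under 0.05 in edgeR. With 2 surrogate variables it was −0.55 (SE 0.08), also called. The median score was higher in cKO than in WT, so the fit with the score cannot fully separate it from genotype. The score list itself had 1 of 9 tested markers called higher and none lower, and its summed level ran from 192 to 204 CPM in WT and from 188 to 205 in cKO. Whether tissue from beside the cerebellum carries Syt5 into these libraries was not tested.

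Among the members that bind calcium weakly or not at all, Syt4 was the only one called. Syt4, found on dense-core vesicles of neurons, ran from 384 to 406 CPM in WT with a median of 392, and from 354 to 382 in cKO with a median of 360.2. The highest cKO library stood just under the lowest WT library. It fell by 7.37%, a log2 fold change of −0.11 (SE 0.02). The call was lost with the score as a covariate (−0.11, SE 0.03), with surrogate variables (−0.09, SE 0.03) and without the 4 libraries highest in the score (−0.11, SE 0.03).

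Syt13, which lacks the acidic residues that bind calcium, ran from 189.8 to 199 CPM in WT and from 165 to 192 in cKO, with 5 of 6 cKO libraries below every WT library. Its log2 fold change was −0.10 (SE 0.03), not called, although it was called by DESeq2 (−0.10, SE 0.03) and without cKO replicate 5 (−0.12, SE 0.03). Syt12 ran from 119 to 125 CPM in WT and from 112 to 130.4 in cKO. Its cKO libraries enclosed the whole WT range, and the log2 fold change was −0.02 (SE 0.03). Syt11, a close relative of Syt4 in sequence that restrains vesicle retrieval, was the least different member. It ran from 498 to 530 CPM in WT and from 499.6 to 525 in cKO, with a log2 fold change of −0.01 (SE 0.02, 95% interval −0.05 to 0.04). Only 11.6% of tested genes had a smaller absolute log2 fold change.

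**Figure D4:**
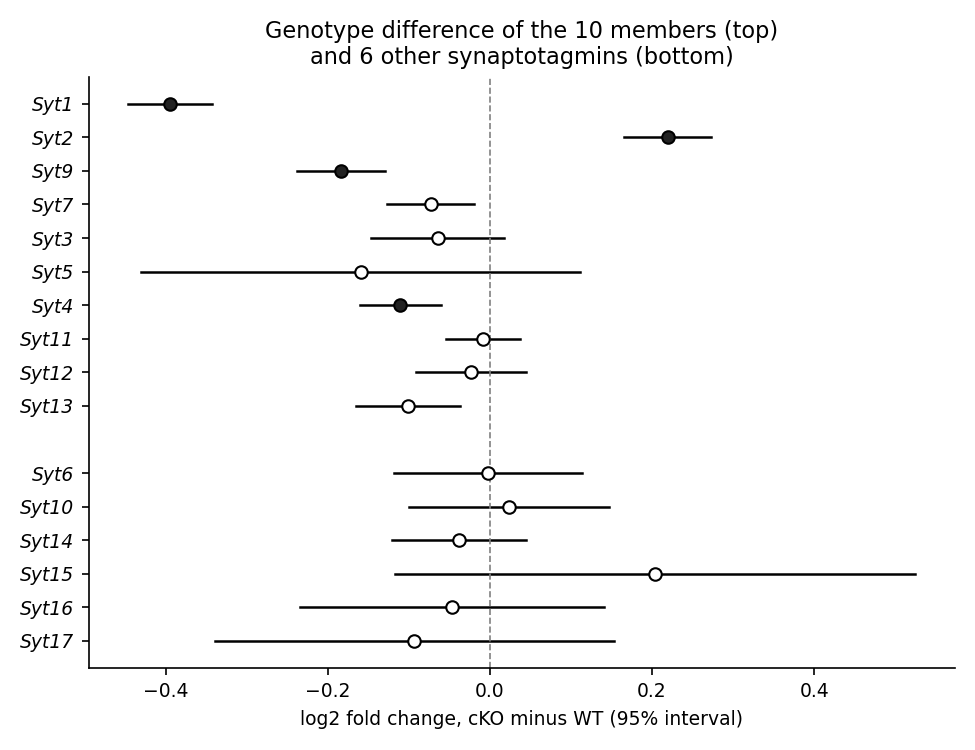
Log2 fold change between cKO and WT (horizontal axis, positive is higher in cKO) with its unadjusted 95% interval for the 10 members (upper block) and 6 other synaptotagmins (lower block); filled points were called at an adjusted p under 0.05 in edgeR. Syt1 at −0.39 and Syt2 at 0.22 lie farthest apart, and no gene of the lower block was called.

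The authors' deposited table gave 5 of the 10 members an adjusted p under 0.05, against 3.71% of the 15180 genes with an adjusted p there: Syt1, Syt9, Syt4 and Syt13 lower and Syt2 higher. Its log2 fold changes, which appear shrunken towards 0, were −0.37 for Syt1, −0.17 for Syt9, −0.10 for Syt4, −0.09 for Syt13 and 0.21 for Syt2 in the authors' deposited table.

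Levels within WT, which played no part in the choice of the family, placed Syt4 and Syt11, which bind calcium weakly or not at all, first. On the scale of CPM per kb of exon, Syt4 measured 101 ± 2.24 and Syt11 99.3 ± 2.35 (SD, n = 6 each). Syt1 followed at 72.0 ± 2.59, Syt7 at 68.6 ± 1.73, Syt13 at 51.6 ± 0.86 and Syt2 at 38.9 ± 1.46. The lower end held Syt3 at 23.6 ± 1.0, Syt12 at 22.1 ± 0.37, Syt9 at 19.2 ± 0.64 and Syt5 at 2.72 ± 0.36. Neighbours in this order were compared within libraries by a two-sided exact sign-flip permutation test, whose smallest p with 6 libraries is 0.0312, adjusted over 9 pairs. In 7 pairs the higher gene was higher in 6 of 6 libraries (exact permutation p = 0.0312, adjusted p = 0.0402 for each). Among them Syt1 exceeded Syt7 by only 1.05-fold, with overlapping ranges, whereas Syt9 exceeded Syt5 by 7.10-fold. Syt4 and Syt11 were not separated (ratio 1.02, higher in 4 of 6 libraries, exact permutation p = 0.344, adjusted p = 0.344), and neither were Syt3 and Syt12 (ratio 1.07, higher in 5 of 6, exact permutation p = 0.0625, adjusted p = 0.0703). These ratios rest on exon lengths of the whole gene model, not of the transcripts in use, and without division by length the order led with Syt1.

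In cKO the order differed in the first 4 places, which restates the genotype differences on which the family was selected and is given as a description. Syt4 was below Syt11 in 6 of 6 cKO libraries and Syt1 below Syt7 in 6 of 6. Syt13 and Syt2, separated in WT by 1.33-fold, stood at a ratio of 1.06 in cKO, with Syt13 higher in 5 of 6 libraries.

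**Figure D5:**
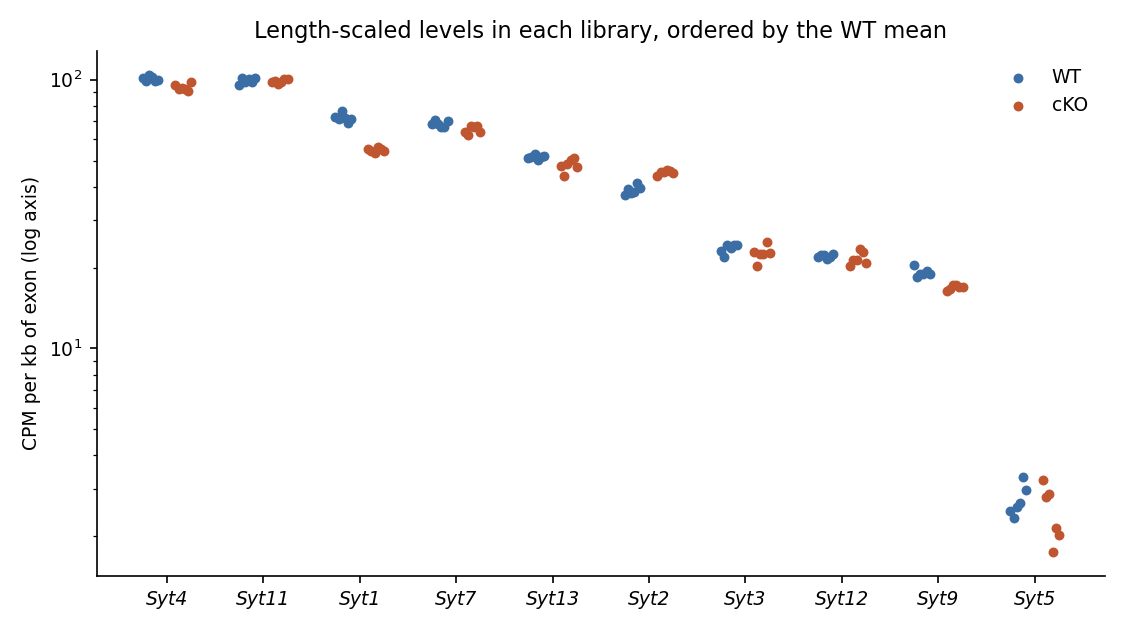
Level of each member in CPM per kb of exon (log axis) in each WT (blue) and cKO (orange) library, ordered by the WT mean. Levels run from 101 for Syt4 to 2.72 for Syt5 in WT, and the blue and orange points of Syt1 and of Syt2 lie apart in opposite directions.

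The members showed no shared variation among libraries that passed correction. Over 45 pairs, correlations of log2 CPM after removal of the genotype means had a median Pearson's r of 0.09, and 26 were positive. No pair passed after adjustment by Pearson's r or Spearman's rho, with 4 and 5 pairs at an unadjusted permutation p under 0.05. By Pearson's r the smallest p belonged to Syt7 with Syt13 (r = 0.75, permutation p = 0.00862, adjusted p = 0.313). Their rho was 0.75 (permutation p = 0.0136, adjusted p = 0.267), and r was 0.54 without the 2 libraries farthest from the median of Syt7. By rho the smallest p belonged to Syt2 with Syt4 (rho = −0.77, permutation p = 0.00653, adjusted p = 0.267). Their r was −0.63 (permutation p = 0.0209, adjusted p = 0.313), and −0.73 without the 2 libraries farthest from the median of Syt2. Syt1 and Syt2, which differed between genotypes in opposite directions, had r = −0.56 (permutation p = 0.141, adjusted p = 0.527) and rho = −0.35 (permutation p = 0.287, adjusted p = 0.695). Their r was −0.06 without the 2 libraries farthest from the median of Syt1, −0.73 within WT and 0.16 within cKO.

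The other synaptotagmins were rare and none was called. Of 7 that were counted, 6 could be tested and 0 passed in edgeR (0 at an unadjusted p under 0.05, and 0 in DESeq2), with a median log2 fold change of −0.02. The most abundant were Syt14, at 39.2 ± 1.06 CPM for WT and 38.2 ± 2.58 for cKO, and Syt6, at 27.7 ± 3.05 and 27.6 ± 0.78 (SD, n = 6 each; edgeR adjusted p = 0.727 and 0.996). Syt10, a sensor of growth factor granules, measured 6.89 ± 0.41 and 7.0 ± 0.40 CPM. Syt16, Syt17 and Syt15 measured 4.45, 3.90 and 0.914 CPM on average in WT, and Syt8, with 0.016 CPM, was too rare to test. For Syt6 the 95% interval of the log2 fold change was −0.12 to 0.11, and for Syt15 −0.12 to 0.52.

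Partners of synaptotagmins in vesicle release were mostly not called. Over 5 lists with 64 tested genes, among them the 6 other synaptotagmins above, 2 were higher and 2 lower in edgeR. That is 6.25% against 2.64% of all tested genes, with a median log2 fold change of 0.00. The lists were chosen with earlier results of these data known, so nothing is read from this share. Of 21 SNAREs and fusion regulators, Cplx2 fell and Unc13a and Bsn rose. In that list 9 had an unadjusted p under 0.05 in edgeR, and 5 were called in DESeq2. Cplx2, a complexin that clamps and then assists synaptotagmin-triggered fusion, ran without overlap from 1037 to 1151 CPM in WT to 833 to 949 in cKO (log2 fold change −0.27, SE 0.03, edgeR adjusted p = 4.34e-05). Unc13a, a vesicle priming factor, averaged 308 ± 15.8 CPM in the WT libraries against 345 ± 23.2 in the cKO libraries (SD over 6), a log2 fold change of 0.16 with an SE of 0.04 (adjusted p = 0.0356 in edgeR). Bsn, the active zone scaffold bassoon, averaged 524 ± 9.81 against 563 ± 23.4 CPM (SD over 6), a log2 fold change of 0.10 with an SE of 0.03 (adjusted p = 0.0382 in edgeR). The call of Unc13a was lost when any of WT replicates 2 to 5 or cKO replicates 3 to 5 was left out (edgeR adjusted p = 0.0507 to 0.102), and that of Bsn when any of WT replicates 1, 3, 4 and 6 or cKO replicates 3 to 5 was (edgeR adjusted p = 0.0571 to 0.0921). Both lost it with the score, with surrogate variables and without the 4 libraries highest in the score (edgeR adjusted p = 0.138 to 0.342 for Unc13a and 0.165 to 0.250 for Bsn), at log2 fold changes of 0.14 to 0.18 for Unc13a and 0.09 to 0.12 for Bsn.

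Of 16 synaptic vesicle proteins 1 fell, Syn2, a synapsin that tethers vesicles to the reserve pool. It ran without overlap from 326 to 341 CPM in WT to 290.5 to 312 in cKO (log2 fold change −0.14, SE 0.02, edgeR adjusted p = 0.00154). In that list 4 had an unadjusted p under 0.05 in edgeR, and 2 were called in DESeq2. Among 11 tested relatives with C2 domains (synaptotagmin-like, Doc2, rabphilin and extended synaptotagmins) none was called in edgeR, with 5 at an unadjusted p under 0.05 and 1 called in DESeq2. None of 10 adaptors that retrieve synaptotagmins from the plasma membrane was called in edgeR (0 at an unadjusted p under 0.05, and 0 in DESeq2).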

How the data were processed

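Raw counts of reads for each gene symbol were deposited, with a DESeq2 comparison by the authors that gives, per the file headers, log2 fold changes, p-values, a mean normalized signal and a test statistic (score) per gene. STAR, DESeq2 and mm10 are named in the submitters' processing notes. The counting tool, its strand setting and the annotation behind it were not given in the sources used here. Per the labels' protocols, libraries were stranded and multiplexed over the same lanes. All 12 count columns were matched by identifier. The sign of the authors' folds was read from 400 genes called in both analyses, all with the same sign.

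Counts were filtered with filterByExpr, scaled by TMM and tested with edgeR 4.0.16 (quasi-likelihood, Benjamini-Hochberg at 0.05) in R 4.3.3; DESeq2 1.42.0 and sva 3.50.0 served alternatives. Exon lengths and positions came from GENCODE M21. Permutations numbered 100000. Replicate numbers only name libraries, and nothing says whether litters were shared.

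Named genes were the 10 members, all other synaptotagmins, up to 4 called genes of smallest p per release list, 3 genes most like Syt1 and Syt2 each (mean of at least 10 CPM), Crhr1 and Gabra6. Members and lists were chosen with earlier results of these data known.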

Additional observations from a re-analysis of the deposited data

Results flagged for a closer look

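Sets of 6 libraries were examined, 56 in all (28 named genes in each genotype). In 4 of them 1 library stood apart from the rest by more than Dixon's 95% critical value. Chance flags about 1 in 20 of unrelated sets. Tmod1, Adamts18 and 3110052M02Rik were named for deviations like those of Syt1, so the count cannot be read against that rate. Syt17 was 4.83 CPM in WT replicate 6, with the next library at 3.92. Tmod1 was 90.8 CPM in cKO replicate 4, with the next at 85.2. WT replicate 3 stood apart in Adamts18, at 29.7 CPM with the next at 24.3, and in 3110052M02Rik, at 35.5 CPM with the next at 27.8. None of these genes is among the 10 members.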

How the results depend on the processing

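Syt1, Syt2 and Syt9 kept their direction and call in all 19 alternative fits, with log2 fold changes of −0.41 to −0.37, 0.20 to 0.24 and −0.19 to −0.16, and Cplx2 and Syn2 kept theirs too. The number of members called was 3 to 5 throughout, though with surrogate variables and with the marker score the 4 included Syt5 in place of Syt4. The 409 called genes became 126 with surrogate variables, 182 with the score, 208 without the 4 libraries highest in the score (WT replicate 5 and cKO replicates 1, 3 and 5; an alternative chosen after seeing the data) and 272 to 459 when 1 library was left out, the lowest without WT replicate 3. The 4 called release genes became 2 in each of the first 3 of these fits, 8 with DESeq2 and 2 to 5 when 1 library was left out, with 2 without WT replicate 3, WT replicate 4 or cKO replicate 3. The cause was not tested, except that the third fit uses fewer samples. The median score was higher in cKO than in WT, and the part of this in the fit with the score was not tested. The count of correlated pairs was 0 in each setting. No paired analysis was possible because the replicate numbers only follow the order of deposit. Reads were fewest for Syt5 among the members and for the rarer of the other synaptotagmins. The part of depth in their spread was not tested.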

Other observations

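The genes whose library-to-library deviations were most like those of Syt1, after removal of genotype means and among 10346 genes of at least 10 CPM, were Tmod1 (Pearson's r = 0.90 over 12 libraries), Adamts18 (0.86) and 3110052M02Rik (0.85). For Syt2 they were Pfn1 (0.87), Chrnb2 (0.86) and Pgk1 (0.86). These are the highest of many coefficients and are given as a description. WT replicate 3, the highest library in Syt1, is also the highest in Adamts18 and 3110052M02Rik. None of the 6 was called between genotypes in edgeR (adjusted p = 0.151 to 0.874).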
